A study of Canis lupus familiaris with 30 samples.

Results

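A set of 4 genes that blood monocytes use to sense microbes and to act on them was followed in dogs on 2 diets: CYBB, TLR4, CTSS and C5AR1. They were chosen by name, as every non-control probe on the arrays whose RefSeq transcript belongs to one of these 4 genes, which gave 5 probes of 43603. With 1 probe kept per gene or transcript, the 4 genes stood among 25933 genes and transcripts tested, of which 1086 carried a gene symbol. CYBB is read by transcript NM_001100291, CTSS by NM_001002938, C5AR1 by NM_001003373 and TLR4, with 2 probes, by NM_001002950.

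Monocytes patrol the blood and enter tissue, where they recognise microbes, engulf them and show their fragments to T cells. TLR4 is the cell-surface receptor for bacterial endotoxin, and C5AR1 is the receptor for C5a, the complement fragment that attracts and arms phagocytes. CYBB is the catalytic chain of the phagocyte NADPH oxidase, which makes superoxide to kill engulfed microbes. CTSS, cathepsin S, is a protease of endosomes and lysosomes that removes the invariant chain from MHC class II molecules so that peptides can be loaded. Neutrophils and some dendritic and B cells also make several of these proteins, so the genes mark myeloid cells rather than monocytes alone.

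The RNA came from peripheral blood mononuclear cells (PBMC), the fraction of blood that density centrifugation enriches in lymphocytes and monocytes. Adult dogs, with no breed or genotype named in the labels, ate 1 diet only for 9 weeks: 8 dogs a premium kibble that holds carbohydrate, and 7 dogs raw red meat, a diet high in fat and protein. Blood was drawn as feeding began (week 0) and every 3 weeks until week 9, so there are 8 groups of diet and week, and each group was read in 7 or 8 of 60 channels on 30 Agilent 2-colour arrays. Each array set one group in Cy3 against another in Cy5. In all, 14 arrays set meat against kibble at the same week (3 each for weeks 0 and 3, 4 each for weeks 6 and 9), and 16 set a later against an earlier week on the same diet (4 each for week 9 against 0 and week 6 against 3). The labels state 6 biological replicates per group, yet which dog lies on which array is not given in the sources used here. The p-values therefore measure the spread between arrays, and some arrays may share a dog. In such a mixed sample fewer monocytes and less RNA per monocyte cannot be told apart.

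Single arrays are named here by the Cy3 group, the Cy5 group and the label's replicate number. Array values are log2 ratios with the gene's fitted dye effect subtracted, turned so that a negative diet value means lower in meat-fed dogs and a positive time value means higher at the later week. Fitted values come from limma on all arrays at once, with a standard error (SE). A gene passed when its p, adjusted by Benjamini-Hochberg over all 25933 genes and transcripts, was under 0.05.

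The probes were bright. Each of the 5 stood well above background in 60 of 60 channels, none was saturated and 0 of their spots were marked faulty. Mean brightness placed CYBB and CTSS each at the 97.2 percentile of everything tested, C5AR1 at the 90.2 and TLR4 at the 89.6. The spread between arrays was large too. The residual SD of the fit was 0.335 for CTSS, 0.351 for CYBB and for TLR4 and 0.421 for C5AR1, between the 88.5 and 93.4 percentiles of all genes and transcripts. Per array, from 20072 to 42272 probes stood above background in the Cy3 channel and from 19401 to 42980 in the Cy5 channel, with kibble 0/kibble 9 replicate 1 the lowest and meat 9/meat 0 replicate 1 the highest in both dyes. Results that change without these arrays are given below.

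TLR4 could be checked within the arrays, since its transcript was read by 2 probes and one of them was printed 5 times. The log2 ratios of Cy5 over Cy3 of those probes, not turned, followed each other over the 30 arrays (Pearson r = 0.934, Spearman rho = 0.88). The 5 spots of the repeated probe differed by a median SD of 0.0497 within an array, and at most by 0.103. Spot noise of that size is small beside the spread between arrays. The brighter probe is used below. The dimmer probe differed from it in sign on kibble from week 0 to week 9 (-0.12 against 0.18). The diet difference of weeks 3, 6 and 9 minus that of week 0 also differed in sign (0.02 against -0.16). So did the diet difference of week 9 minus that of week 0 (0.22 against -0.03). Neither probe passed in these comparisons.

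Over weeks 3, 6 and 9 each of the 4 genes was lower in meat-fed than in kibble-fed dogs. In this comparison 14.9% of everything tested passed, and 7.95% passed as lower. All 4 of the 4 genes passed as lower, with a median of -0.451 against -6.65e-06 for all genes and transcripts.

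Among the receptors, TLR4 ranged from -1.03 to 0.15 on the 11 diet arrays of these weeks, with a median of -0.47. It was lower on 10 of 11 arrays, and the exception was meat 6/kibble 6 replicate 1. The fitted difference was -0.43 ± 0.0989 (SE), 1.35-fold lower on meat (adjusted p = 0.00389). The dimmer TLR4 probe gave -0.35 ± 0.109 (adjusted p = 0.0275 over all probes). C5AR1 ranged from -1.34 to 0.36 with a median of -0.42. It too was lower on 10 of 11 arrays, with the same array as the exception. The fitted difference was -0.47 ± 0.118, 1.39-fold lower (adjusted p = 0.00728).

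Among the effectors, CYBB ranged from -1.25 to -0.16 with a median of -0.70. Every one of the 11 arrays was lower once the dye effect was subtracted, and 10 of 11 before that, as CYBB had the largest dye effect of the 4 genes (-0.17, adjusted p = 0.0744). Its fitted difference was the largest of the 4, -0.69 ± 0.0989, 1.61-fold lower on meat (adjusted p = 5.75e-05). CTSS ranged from -0.82 to 0.21 with a median of -0.36, and it was lower on 9 of 11 arrays. The arrays where it was higher were meat 6/kibble 6 replicate 1 and kibble 9/meat 9 replicate 1. The fitted difference was -0.39 ± 0.0943, 1.31-fold lower (adjusted p = 0.00551). Of all genes and transcripts 1.41% were lower on 11 of 11 arrays, 5.52% on at least 10 and 11.9% on at least 9.

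The TLR4, CTSS and C5AR1 calls did not hold when arrays were centred on their median in place of loess, the intensity-dependent curve used here (-0.34, adjusted p = 0.0941, -0.31, adjusted p = 0.186, and -0.38, adjusted p = 0.102). CYBB kept its call there (-0.60).

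**Figure D1:**
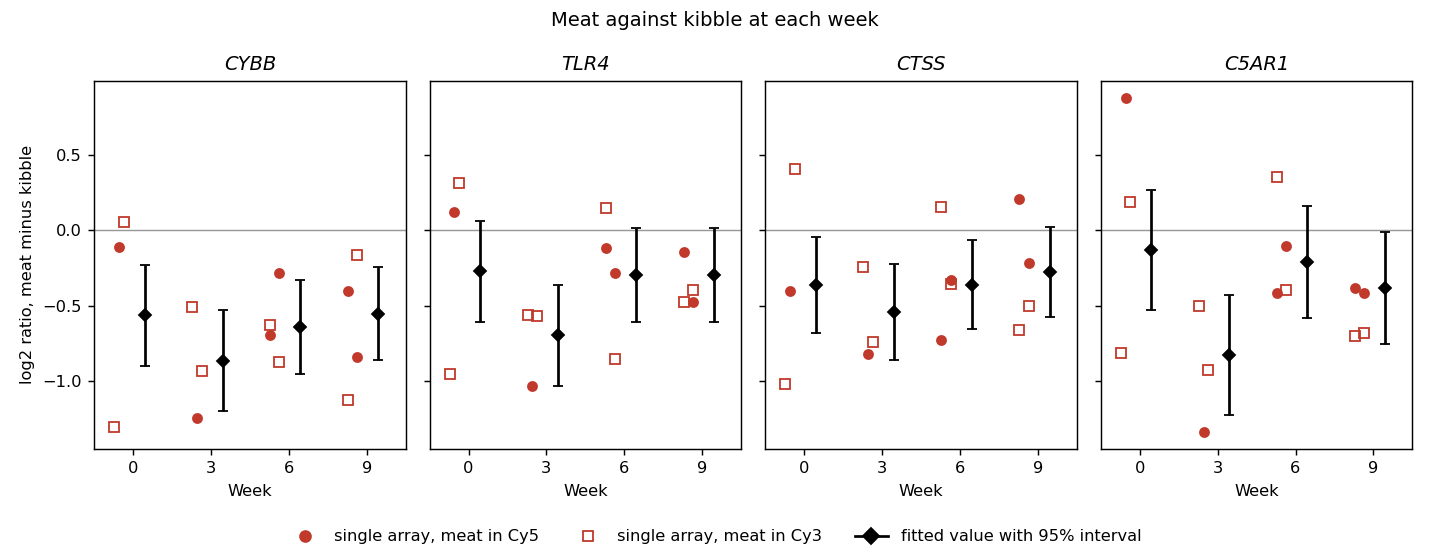
Log2 ratio of meat over kibble (vertical axis) by week (horizontal axis) for CYBB, TLR4, CTSS and C5AR1. Red points are single arrays with the dye effect subtracted, filled where meat was in Cy5 and open where it was in Cy3; black diamonds are fitted values with 95% intervals. At week 3 each array lies below 0 for every gene, while the 3 arrays of week 0 spread from -1.30 to 0.88.

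At week 0, the start of the feeding, none of the 4 genes was called. The share of everything tested that passed was 0.312%, and 0 of the 4 genes did in limma, where 2304 genes and transcripts had an unadjusted p under 0.05. For TLR4 the 3 arrays read -0.95, 0.12 and 0.31, and for C5AR1 -0.81, 0.88 and 0.19 (meat 0/kibble 0 replicate 1, kibble 0/meat 0 replicate 1 and meat 0/kibble 0 replicate 2). In the same order CYBB read -1.30, -0.11 and 0.05, and CTSS -1.02, -0.40 and 0.41. So 1 array was low in all 4 genes, 1 was above 0 in all 4, and the other differed from gene to gene.

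Fitted over all arrays, the differences at week 0 were -0.56 ± 0.163 for CYBB (adjusted p = 0.164), -0.36 for CTSS (0.46), -0.27 for TLR4 (0.715) and -0.13 for C5AR1 (0.97), the number in brackets being the adjusted p. Single arrays decided these values. Without meat 0/kibble 0 replicate 2, CYBB came to -0.79 (adjusted p = 0.0313) and CTSS to -0.65 (adjusted p = 0.0416). Without meat 0/kibble 0 replicate 1, CYBB fell back to -0.29 (adjusted p = 0.676) and C5AR1 turned to 0.12 (adjusted p = 0.929).

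Whether the diet difference of the fed weeks exceeded that of week 0 was tested directly. No gene or transcript of the 25933 passed (0% called by limma, 2344 with an unadjusted p under 0.05). The difference of differences was -0.34 for C5AR1 (95% interval -0.78 to 0.09, adjusted p = 0.682), -0.16 for TLR4 (-0.52 to 0.20, 0.877), -0.12 for CYBB (-0.49 to 0.24, 0.913) and -0.03 for CTSS (-0.38 to 0.32, 0.978). Each interval includes 0, so the diet difference of the fed weeks was not shown to differ from that at week 0.

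Week 3 showed the widest gap between the diets. Here 6.09% of everything tested passed and 3.79% passed as lower, and all 4 genes passed as lower. On kibble 3/meat 3 replicate 1, meat 3/kibble 3 replicate 1 and meat 3/kibble 3 replicate 2, TLR4 read -1.03, -0.56 and -0.56. C5AR1 read -1.34, -0.50 and -0.92 on the same arrays. CYBB read -1.25, -0.50 and -0.93, and CTSS -0.82, -0.24 and -0.74. The first array was the lowest and the second the highest in CYBB, CTSS and C5AR1, and no array of week 3 was above 0 in any of the 4 genes.

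The fitted differences at week 3 were -0.86 ± 0.163 for CYBB (1.82-fold, adjusted p = 0.00366) and -0.83 ± 0.194 for C5AR1 (1.77-fold, adjusted p = 0.0137). TLR4 followed at -0.70 ± 0.163 (1.62-fold, adjusted p = 0.0131) and CTSS at -0.54 ± 0.155 (1.45-fold, adjusted p = 0.0381). Single arrays decided several of these calls. Without kibble 3/meat 3 replicate 1 TLR4 (-0.60, adjusted p = 0.0708), CTSS (-0.46, 0.144) and C5AR1 (-0.68, 0.0814) were lost, and without meat 3/kibble 3 replicate 2 the same genes were lost (-0.74, 0.0671; -0.46, 0.238; -0.79, 0.105). CTSS was also lost without meat 6/meat 3 replicate 1 (-0.54, 0.0511) or replicate 4 (-0.52, 0.0578). CYBB kept its call whichever single array was left out. Median centring left CYBB alone called (TLR4 -0.76, adjusted p = 0.0628; CTSS -0.64, 0.159; C5AR1 -0.89, 0.0565), as did a dye term for each scan session (adjusted p = 0.0576, 0.0792 and 0.0634). All 3 arrays lay on 1 slide, where the values of those arrays alone were -0.98 for CYBB, -0.80 for TLR4, -0.65 for CTSS and -1.02 for C5AR1 (adjusted p = 0.172 for each). With the slide as a fixed term TLR4 (adjusted p = 0.0683) and CTSS (adjusted p = 0.0942) were not called. That term, here and below, gives each slide its own dye effect in place of the common one.

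By week 6 CYBB alone passed, in a comparison where 6.24% of everything tested did. On kibble 6/meat 6 replicates 1 and 2 and meat 6/kibble 6 replicates 1 and 2, CYBB read -0.70, -0.28, -0.63 and -0.87. Its fitted difference was -0.64 ± 0.151 (1.56-fold, adjusted p = 0.0121). In the same order TLR4 read -0.12, -0.28, 0.15 and -0.85, CTSS -0.72, -0.33, 0.16 and -0.36, and C5AR1 -0.42, -0.10, 0.36 and -0.39. On meat 6/kibble 6 replicate 1 the oxidase chain was low while the other genes were higher on meat. Fitted values were -0.36 for CTSS (adjusted p = 0.149), -0.30 for TLR4 (0.286) and -0.21 for C5AR1 (0.586). The CYBB call was lost without kibble 6/meat 6 replicate 1 (-0.62, adjusted p = 0.0898), with the slide as a fixed term (-0.62, 0.0744), from the week 6 diet arrays alone (-0.62, 0.105) and with median centring (-0.47, 0.181).

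At week 9 the share that passed was 0.582%, and 0 of the 4 genes passed in limma (2720 of everything tested had an unadjusted p under 0.05). On kibble 9/meat 9 replicates 1 and 2 and meat 9/kibble 9 replicates 1 and 2, TLR4 read -0.14, -0.47, -0.48 and -0.39, and C5AR1 -0.38, -0.42, -0.70 and -0.68. CYBB read -0.40, -0.84, -1.12 and -0.16, and CTSS 0.21, -0.22, -0.66 and -0.50. Of these 16 values 1 was above 0, that of CTSS on kibble 9/meat 9 replicate 1. The fitted values were -0.55 ± 0.151 for CYBB (adjusted p = 0.103), -0.38 ± 0.181 for C5AR1 (0.459), -0.30 for TLR4 (0.511) and -0.28 for CTSS (0.526). Without meat 0/kibble 0 replicate 2, which enters through the fit, CYBB passed at -0.59 (adjusted p = 0.0438).

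A gene that passed at one week and not at another was not shown to differ between them. The diet difference at week 6 minus that at week 3 was 0.62 ± 0.221 for C5AR1 (95% interval 0.16 to 1.07, unadjusted p = 0.00961, adjusted p = 0.481) and 0.40 ± 0.185 for TLR4 (unadjusted p = 0.0396, adjusted p = 0.501). It was 0.22 for CYBB (adjusted p = 0.747) and 0.18 for CTSS (0.801). In that test 0% of everything passed in limma, with 2522 at an unadjusted p under 0.05. For week 9 minus week 0 the values were 0.01 for CYBB, 0.09 for CTSS, -0.03 for TLR4 and -0.25 for C5AR1 (adjusted p from 0.814 to 0.992), again with 0% passing and 2032 at an unadjusted p under 0.05.

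**Figure D2:**
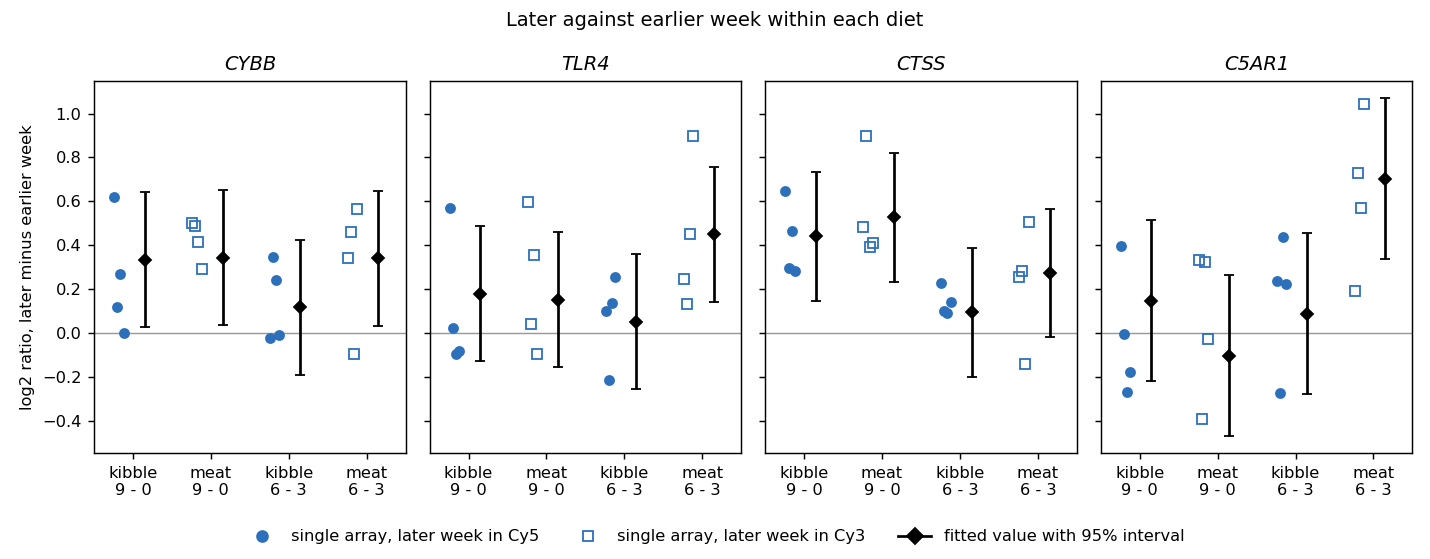
Log2 ratio of the later over the earlier week (vertical axis) within each diet (horizontal axis) for CYBB, TLR4, CTSS and C5AR1. Blue points are single arrays with the dye effect subtracted, filled where the later week was in Cy5 and open where it was in Cy3; black diamonds are fitted values with 95% intervals. CTSS lies above 0 on the 4 arrays of week 9 against week 0 in both diets, and C5AR1 on the 4 meat arrays of week 6 against week 3.

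Over time CTSS rose on both diets. On kibble, where 13.7% of everything tested changed between weeks 0 and 9, its 4 arrays read 0.65, 0.30, 0.46 and 0.28 (replicates 1 to 4). On meat, where 8.04% changed, they read 0.48, 0.90, 0.39 and 0.41. No array was below 0. One slide held replicates 1 and 2 of both diets and another replicates 3 and 4. The slides overlapped on kibble, while on meat both arrays of the former were above both arrays of the latter. The fitted rise was 0.44 ± 0.143 on kibble (1.36-fold, adjusted p = 0.0387) and 0.53 ± 0.143 on meat (1.44-fold, adjusted p = 0.0223).

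The kibble rise of CTSS lost its call in 14 of 48 alternatives. Median centring took it to 0.04 (adjusted p = 0.885), leaving out the arrays with the fewest and the most probes above background gave 0.40 (adjusted p = 0.115), and the slide as a fixed term gave 0.45 (adjusted p = 0.102). It was lost without each of 7 single arrays, with values from 0.32 to 0.48 and adjusted p up to 0.103. Those 7 were kibble 0/kibble 9 replicates 1 to 4, meat 9/meat 0 replicate 2, meat 0/kibble 0 replicate 2 and meat 9/kibble 9 replicate 1. The meat rise was lost without meat 9/meat 0 replicate 2 (0.44, adjusted p = 0.133) or replicate 3 (0.56, 0.0549), with the slide as a fixed term (0.51, 0.106) and with median centring (0.53, 0.164).

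CYBB gave similar values on both diets without passing. Between weeks 0 and 9 it read 0.62, 0.12, 0.27 and -0.003 on kibble (fitted 0.33, adjusted p = 0.147) and 0.50, 0.49, 0.41 and 0.29 on meat (fitted 0.34, adjusted p = 0.175). The receptors were scattered. TLR4 read 0.57, 0.02, -0.10 and -0.08 on kibble (fitted 0.18, adjusted p = 0.501) and 0.60, 0.04, 0.36 and -0.10 on meat (fitted 0.15, adjusted p = 0.644). C5AR1 read 0.40, -0.003, -0.27 and -0.18 on kibble (fitted 0.15, adjusted p = 0.671) and 0.33, -0.39, 0.32 and -0.03 on meat (fitted -0.10, adjusted p = 0.812). Kibble 0/kibble 9 replicate 1 was the highest of the 4 kibble arrays in all 4 genes, and it is the array with the fewest probes above background. With median centring the kibble values of CYBB, TLR4 and C5AR1 turned to -0.06, -0.19 and -0.21, so their direction depends on the scaling. Under that scaling CTSS on kibble stayed at 0.04.

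Between weeks 3 and 6 C5AR1 rose on meat, and no other comparison of these weeks within a diet passed for the 4 genes. C5AR1 read 0.19, 0.73, 0.57 and 1.04 on meat (replicates 1 to 4), and the fitted rise was 0.70 ± 0.179, 1.63-fold (adjusted p = 0.0358), in a comparison where 2.25% of everything passed. TLR4 read 0.24, 0.13, 0.45 and 0.90, with a fitted value of 0.45 ± 0.15 (adjusted p = 0.103). Replicate 4 was the highest array in both receptors. CYBB read 0.34, 0.46, -0.10 and 0.56 (fitted 0.34, adjusted p = 0.221) and CTSS 0.26, 0.28, -0.14 and 0.51 (fitted 0.27, adjusted p = 0.316). On replicate 3 both receptors were above 0 while both effectors were below it.

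On kibble 0.0347% of everything passed between weeks 3 and 6, and 0 of the 4 genes did in limma (4550 at an unadjusted p under 0.05). C5AR1 read 0.24, -0.27, 0.44 and 0.22 there and TLR4 0.10, -0.22, 0.14 and 0.25. Replicate 2 was below 0 in both. CYBB read -0.03, 0.35, 0.24 and -0.01, and CTSS stayed within 0.09 to 0.23. Fitted values lay between 0.05 (TLR4) and 0.12 (CYBB), with adjusted p from 0.737 to 0.901. The difference between the diets in this change is the test given above, which none of the 4 genes passed.

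The meat rise of C5AR1 lost its call with a dye term for each scan session (0.64, adjusted p = 0.0934) and without each of 6 single arrays, with values from 0.63 to 0.73 and adjusted p up to 0.128. Those 6 were meat 6/meat 3 replicates 2, 3 and 4, kibble 3/kibble 6 replicate 4, kibble 3/meat 3 replicate 1 and meat 3/kibble 3 replicate 2. With median centring 3 of the 4 genes passed in this comparison, C5AR1 at 1.01 (adjusted p = 0.00851), TLR4 at 0.75 (0.015) and CYBB at 0.63 (0.0307).

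**Figure D3:**
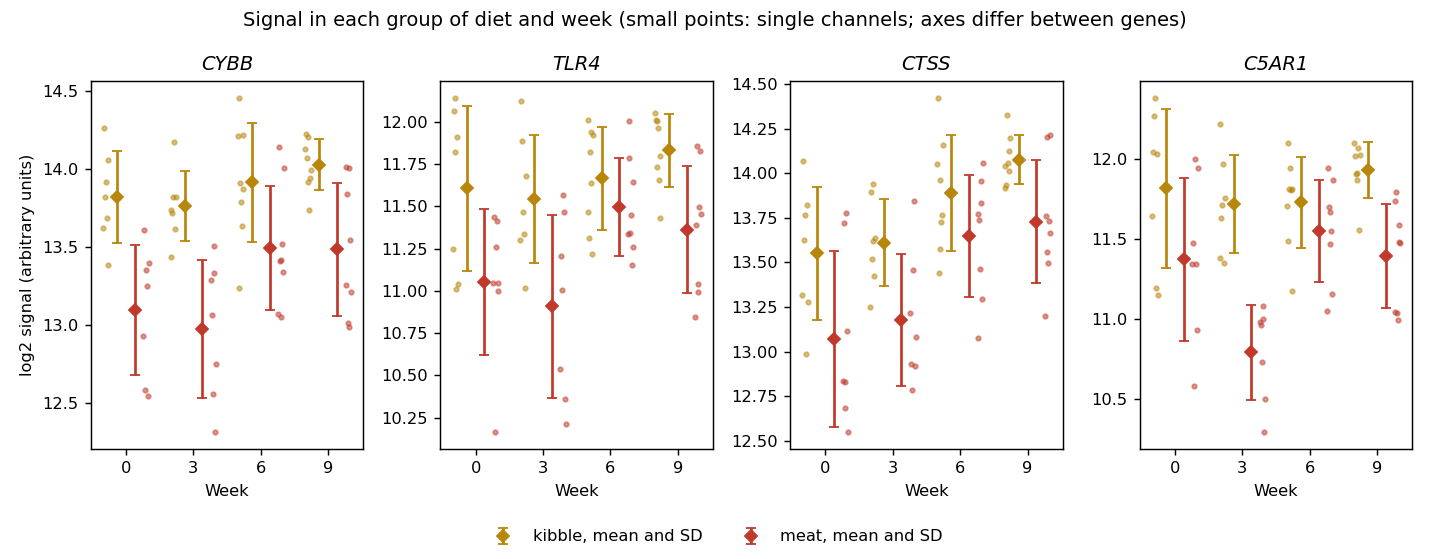
Log2 signal of each gene (vertical axis, arbitrary units, a different range per gene) by week (horizontal axis) for kibble in gold and meat in red. Small points are single channels and diamonds with bars are the mean and SD over 7 or 8 channels; meat lies below kibble in mean at each week for each gene.

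The separate-channel levels show where the groups overlap. Levels are log2 signals after quantile normalisation of the arrays' mean brightness, they still hold the dye effect, and they may be set against each other within a gene but not between genes. In each gene the highest mean was kibble at week 9: 14.03 ± 0.163 (SD, n = 8) for CYBB, 11.83 ± 0.217 for TLR4, 14.08 ± 0.138 for CTSS and 11.93 ± 0.173 for C5AR1. In each gene this group also had the smallest SD of the 8. Meat at week 3 was the lowest for CYBB (12.98 ± 0.442, n = 7), TLR4 (10.91 ± 0.543) and C5AR1 (10.79 ± 0.297), and meat at week 0 was the lowest for CTSS (13.07 ± 0.493, n = 7).

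For CYBB the order from high to low was kibble 9, 6, 0 and 3 and then meat 6, 9, 0 and 3, with no meat group above a kibble group. TLR4 had the same order of groups. C5AR1 ran kibble 9, 0, 6 and 3 and then meat 6, 9, 0 and 3. CTSS mixed the diets, with kibble 9 and 6, meat 9 and 6, kibble 3 and 0, and meat 3 and 0. Within each diet its later weeks ranked above earlier ones. These orders depended in part on the quantile normalisation. Without it TLR4 on meat 6 (11.558) stood above kibble 3 (11.556). CTSS on kibble 3 (13.665) then stood above meat 6 (13.663) and meat 9 (13.63), and C5AR1 on meat 0 (11.40) above meat 9 (11.32). In the quantile-normalised orders most neighbours lay closer than their pooled SD. The exceptions were meat 0 (11.37) over meat 3 (10.79) in C5AR1, a gap of 0.582 against an SD of 0.417, and kibble 0 (13.55) over meat 3 (13.18) in CTSS, a gap of 0.376 against 0.371.

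Of 16 pairs of gene and week, the channels of the diets did not overlap in 1, C5AR1 at week 3. There meat ran from 10.29 to 11.08 with a median of 10.96, and kibble from 11.35 to 12.21 with a median of 11.71. Of everything tested 0.466% was free of overlap in that week, against 0.29% in week 0, 0.239% in week 6 and 0.196% in week 9. CYBB at week 3 overlapped slightly, with meat from 12.32 to 13.51 and kibble from 13.44 to 14.17. TLR4 (10.22 to 11.57 against 11.01 to 12.12) and CTSS (12.78 to 13.84 against 13.25 to 13.94) overlapped more.

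Weeks 3 and 6 could be set against week 0 only through these levels, as no array joins them, so the slide and the pair of weeks cannot be told apart there. In the 4 such comparisons 15.9% (kibble, week 3), 17.4% (kibble, week 6), 19.1% (meat, week 3) and 14.3% (meat, week 6) of everything passed, and of the 4 genes C5AR1 passed once. It was lower on meat at week 3 than at week 0 by -0.68 ± 0.195 (adjusted p = 0.00992). Without quantile normalisation the value was -0.65 (adjusted p = 0.288). On kibble the same step was -0.05 (adjusted p = 0.905), and the difference between the diets, -0.63 ± 0.205, did not pass (adjusted p = 0.241, with 0.0117% of everything passing).

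**Figure D4:**
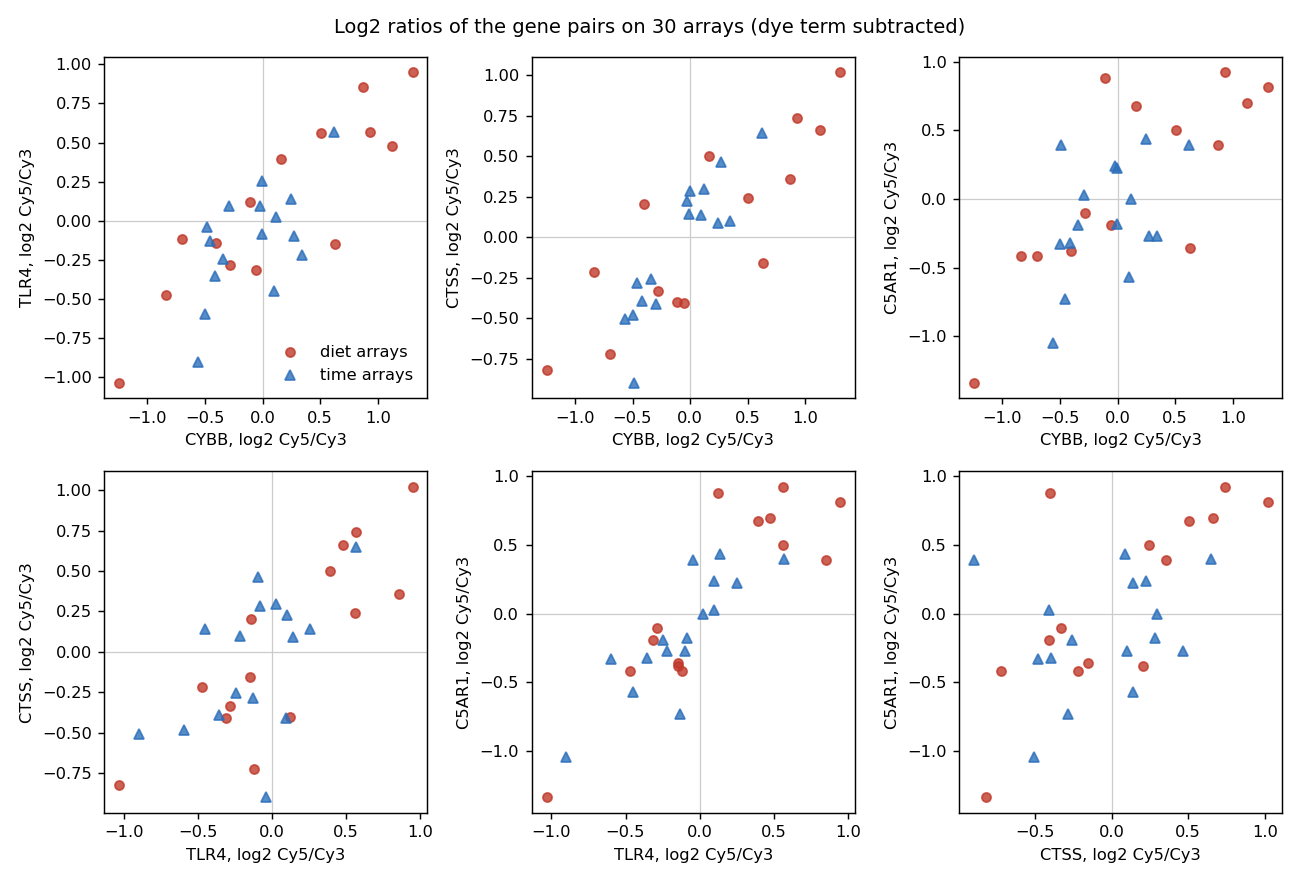
Log2 ratio of Cy5 over Cy3 for the 6 pairs of genes, 1 point per array with the dye effect subtracted, red circles for the 14 diet arrays and blue triangles for the 16 time arrays. TLR4 and C5AR1 lie closest to a line (r = 0.868), and CTSS and C5AR1 scatter most (r = 0.582).

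The 4 genes moved together from array to array. On 9 of the 11 diet arrays of the fed weeks all 4 were lower on meat, on 0 all 4 were higher, and 2 were mixed. On the 16 time arrays all 4 were higher at the later week on 7 and mixed on 9. Correlations over arrays are given as a description, since arrays share groups and slides and may share dogs. They use the log2 ratio of Cy5 over Cy3, which is not turned. Group differences that a pair of genes shares therefore enter r, with a sign set by the dye order. The residuals below leave the fitted group differences out. Over 30 arrays the receptors TLR4 and C5AR1 gave r = 0.868 and the effectors CYBB and CTSS r = 0.837. CYBB with TLR4 gave 0.816, TLR4 with CTSS 0.734, CYBB with C5AR1 0.703 and CTSS with C5AR1 0.582. Differences between correlations were not tested.

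On the 16 time arrays CYBB with CTSS gave r = 0.895 and TLR4 with C5AR1 0.828, against 0.258 for CTSS with C5AR1 and 0.447 for CYBB with C5AR1. The 14 diet arrays gave another order, with CYBB with TLR4 at 0.881, TLR4 with C5AR1 at 0.875, TLR4 with CTSS at 0.845, CYBB with CTSS at 0.842, CYBB with C5AR1 at 0.78 and CTSS with C5AR1 at 0.749. After the fitted groups were removed, the residuals of the 30 arrays still correlated at 0.482 to 0.789, which is what single arrays shared beyond their groups. Of the 30 arrays, the 2 farthest from the median of the gene named first in a pair were also left out. The r of the ratios then lay between 0.594 (CYBB with C5AR1) and 0.881 (TLR4 with C5AR1).

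Among 1085 other named genes, those whose ratios followed each member most closely were found by Pearson r over the 30 arrays. These r also use the unturned ratio of Cy5 over Cy3, so shared group differences enter them. For TLR4 they were MPP1, a membrane scaffold protein (0.929), ARG2, the mitochondrial arginase (0.868), and C5AR1. For C5AR1 they were ARG2 (0.899), MPP1 (0.885) and TLR4, so the receptors shared their neighbours. For CTSS they were NPC2, a lysosomal cholesterol carrier (0.919), the transcription factor MITF (0.903) and the co-stimulatory ligand CD86 (0.864). For CYBB they were the cytokine TNFSF13 (0.867), the transporter SLC46A2 and galectin-3, LGALS3 (0.86 each). The median r of a named gene was 0.0257 to 0.0736. Their fitted values in meat against kibble over weeks 3, 6 and 9 ran from -0.75 (LGALS3) to -0.11 (CD86), a description only, since these genes were picked for following the 4 genes on the same arrays.

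**Figure D5:**
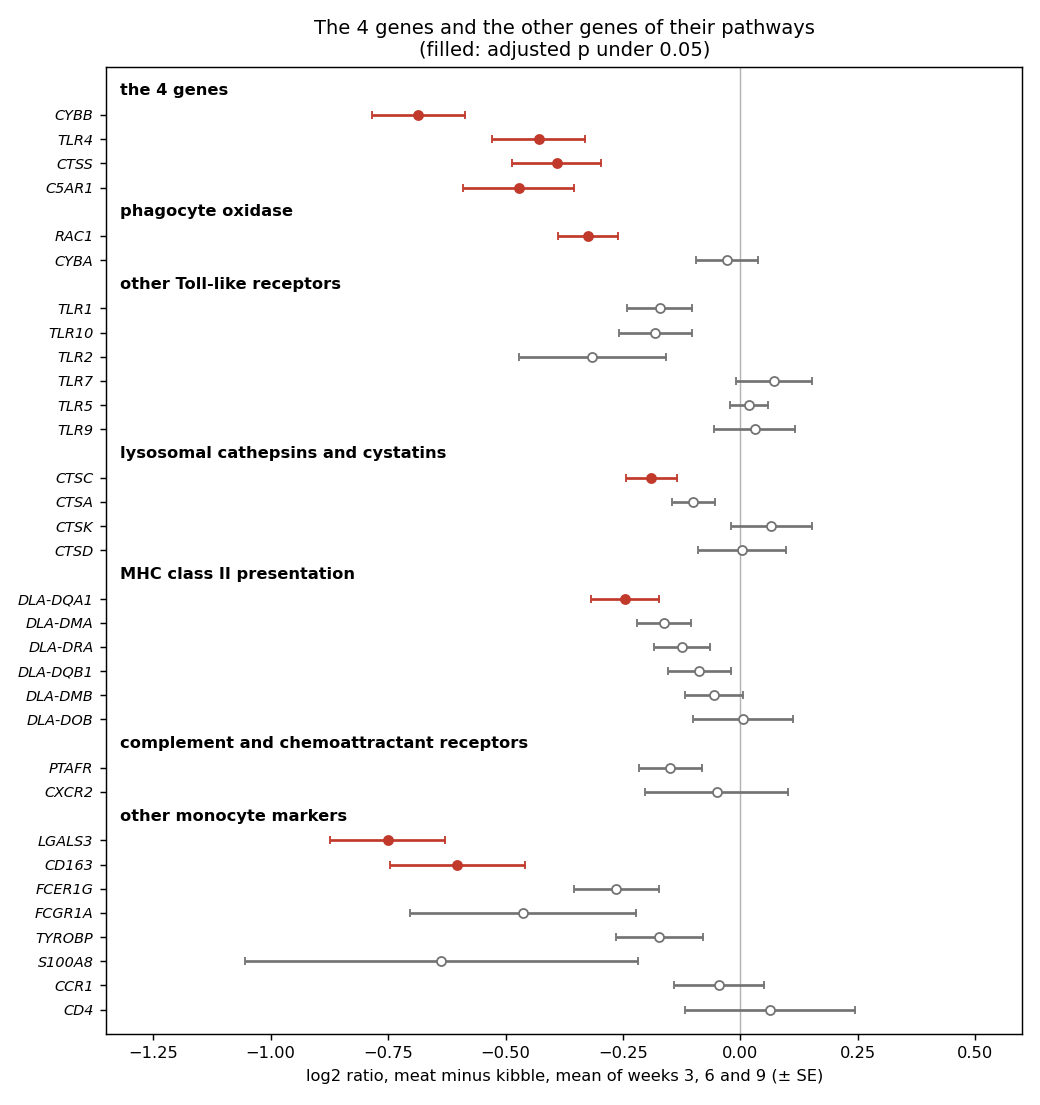
Fitted log2 ratio of meat over kibble, mean of weeks 3, 6 and 9 (horizontal axis, bars are SE), for the 4 genes and other genes of 6 lists. Red filled points passed at an adjusted p under 0.05; the 4 genes, RAC1, CTSC, DLA-DQA1, LGALS3 and CD163 passed, all lower on meat.

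Most partners of these genes were not called, and the same held for everything tested, of which 14.9% passed. Whether the partners differ in this from everything tested was not tested. Of the other oxidase genes RAC1 and CYBA are described. RAC1, the small GTPase that helps switch the oxidase on, ranged from -0.75 to -0.003 on the 11 arrays and gave -0.32 ± 0.0635 (adjusted p = 0.00108). CYBA, the membrane partner of CYBB, was at -0.03 (adjusted p = 0.86). The difference between CYBB and CYBA was not tested.

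Of the TLR4 pathway 2 other genes were measured and 0 passed, NFKB1 (0.06, adjusted p = 0.505) and the adaptor TICAM2 (-0.03, 0.611). Of 6 other Toll-like receptors 0 passed. TLR2, the receptor for bacterial lipoproteins, was at -0.32 ± 0.156 (adjusted p = 0.201), its partner TLR1 at -0.17 (0.0958), TLR10 at -0.18 (0.127) and the RNA sensor TLR7 at 0.07 (0.665). Of 11 inflammatory products that lie downstream 0 passed in limma, with a median of 0.0307, TNF at 0.10 (adjusted p = 0.172) and IL1RN, the interleukin-1 receptor antagonist, at -0.13 (0.383). CCL4, a chemokine, was at -0.22 (adjusted p = 0.123) and PTGS2, the inducible cyclooxygenase, at 0.38 (0.263).

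Among 4 other cathepsins CTSC was lower (-0.19 ± 0.0546, adjusted p = 0.0182), while CTSA (-0.10, 0.151), CTSK (0.07, 0.722) and CTSD (0.002, 0.994) did not pass. Of 6 MHC class II genes, whose products CTSS prepares for peptide, DLA-DQA1 was lower (-0.25 ± 0.0722, adjusted p = 0.0208). DLA-DMA, which edits the peptides, was at -0.16 (adjusted p = 0.0575) with DLA-DRA at -0.12 (0.188) and DLA-DQB1 at -0.09 (0.472). Of 2 other chemoattractant receptors 0 passed, PTAFR at -0.15 (adjusted p = 0.157) and CXCR2 at -0.05 (0.893). Median centring ended the calls of RAC1, CTSC and DLA-DQA1, and scaling between arrays ended that of CTSC.

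Other monocyte markers moved in part. Of 8 measured, LGALS3 (-0.75 ± 0.122, adjusted p = 0.000197) and CD163, the scavenger receptor for haemoglobin (-0.60 ± 0.144, adjusted p = 0.00515), were lower, each on 11 of 11 arrays, and kept their calls under median centring. FCER1G, the common Fc receptor chain, was at -0.26 (adjusted p = 0.0502) and the Fc receptor FCGR1A at -0.46 ± 0.24 (0.227). TYROBP, S100A8, CCR1 and CD4 did not pass either (-0.64 to 0.06). The median of these 8 was -0.364. A sum over 7 of these 8 genes was also taken. At week 3 its log2 level ran from 14.91 to 15.84 on meat and from 15.44 to 16.35 on kibble. CD14, CSF1R and LYZ, which define monocytes, were not analysed here.

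Markers of other blood cells moved in the same comparison. All 6 of 6 platelet markers were lower on meat, from -0.74 (ITGB3) to -1.31 (GP1BA). Of 5 neutrophil markers 3 were lower, CAMP (-2.54 ± 0.287), LTF (-0.77) and ELANE (-0.15). Of 7 markers of cytotoxic T cells and NK cells 5 fell below kibble, CCL5 (-0.92), CX3CR1 (-0.52), CD8A (-0.45), PRF1 (-0.31) and FASLG (-0.27), while of 5 T cell markers 3 were higher, CD40LG (0.33), CD28 (0.25) and ICOS (0.19). Of 7 dendritic cell markers CD1A6 (0.69) and CD1A8 (0.18) were higher and CD80 (-0.29) was lower. The basophil list held 1 lower of 3, MS4A2 (-1.17) and the B cell list 0 of 2.

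At week 3 the summed log2 level of the neutrophil markers ran from 12.23 to 13.65 on meat and from 12.81 to 15.75 on kibble. The platelet sum ran from 13.8 to 15.13 on meat and from 14.79 to 15.62 on kibble, the cytotoxic sum from 13.92 to 15.48 and from 14.46 to 15.87, and the T cell sum from 11.26 to 12.24 and from 10.8 to 11.71. The sums of the diets overlapped in each of these lists. No marker of these lists on the arrays was without a channel well above background. The part of these cells in the values of CYBB, TLR4, CTSS and C5AR1 was not tested.

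Between weeks 0 and 9, where CTSS rose, RAC1 rose on both diets too, by 0.38 ± 0.0962 on kibble (adjusted p = 0.00848) and 0.35 ± 0.0962 on meat (adjusted p = 0.026). CYBA fell on kibble (-0.32 ± 0.1, adjusted p = 0.0304). Of the 6 MHC class II genes, DLA-DQA1 (0.50 ± 0.109, adjusted p = 0.00731) and DLA-DMA (0.30 ± 0.0876, adjusted p = 0.0327) rose on meat, and 0 passed on kibble. No other cathepsin passed on either diet.

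Platelet markers rose over the same weeks, 4 of 6 on kibble (SELP, GP1BA, PTGS1 and CLU) and 3 of 6 on meat (PTGS1, SELP and GP1BA). The platelet sum ran from 13.89 to 14.46 at week 0 and from 14.89 to 16.38 at week 9 on kibble, without overlap. Of the 8 other monocyte markers 0 were called on kibble (median -0.187, against 0.00022 for everything tested). On meat their median was -0.233, against 0.00249, and of them only CD4, which T cells also express, was called, as lower (-0.90). Between weeks 3 and 6 on meat, where C5AR1 rose, the other monocyte markers had a median of 0.346 with 0 of 8 called, against 0.0016 for everything tested. In that comparison the platelet markers had a median of -0.824, with SELP lower (-0.97 ± 0.251, adjusted p = 0.0376) and no other of the 6 called. The cytotoxic list had a median of -0.444 with 0 of 7 called, the neutrophil list 0.0549 with 0 of 5 and the T cell list -0.0889 with 0 of 5. The part of these cells in the rises of CTSS and C5AR1 was not tested.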

How the data were processed

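Agilent 2-colour arrays compared RNA of canine PBMC, 200 ng per labelling per the labels. Per the file headers, the deposited scanner files came from Agilent Feature Extraction 10.10.1.1 and give the median intensity of each spot and its local background. The authors also deposited normalised log2 ratios per spot, made with limma per the submitters' processing notes, the steps not being given in the sources used here. Those ratios were used only as an alternative, and correlated at 0.824 to 0.992 with the ratios computed here.

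Ratios were computed from the intensities with limma 3.58.1 in R 4.3.3. The normexp method (offset 50) removed background, and each array was normalised by loess with control and faulty spots at weight 0. A probe was kept where 7 or more of the 60 channels stood well above background (31674 probes), and the brightest kept probe stood for a gene or transcript. A linear model over all 30 arrays with the 8 groups in 2 loops (weeks 0 and 9, weeks 3 and 6) and a dye term left 23 residual degrees of freedom. It gave 12 comparisons with moderated tests, each adjusted by Benjamini-Hochberg. Fold changes are on the log2 ratio scale. Levels per channel and steps between loops came from limma's separate-channel fit (intraspot correlation 0.722). On the time arrays the later week was always in Cy5 on kibble and in Cy3 on meat, so their values lean on the dye term estimated from the diet arrays. The test was checked on simulated data with independent noise on each array. That check leaves out any dogs shared between arrays.

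Named genes are the 4 genes, the 3 named genes with the highest Pearson r to each, and up to 4 genes per list with the smallest p; others were named after their values were seen. The 4 genes and the lists were chosen with earlier results of these data known. Gene symbols come from matching the RefSeq transcripts in the scanner files to the RefSeq table of assembly UU_Cfam_GSD_1.0, which named 2175 of 43603 probes; other probes kept the identifier of the files. Complement components were not analysed here, and some genes of the lists are not reported here. The arrays' number and spread limit the precision. Alternatives were background, normalisation, filter, dye, slide, block and weighting choices, each array left out, and, added after seeing the data, a dye term per scan session and leaving out the arrays with the fewest and the most probes above background.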

Additional observations from a re-analysis of the deposited data

Results flagged for a closer look

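Of 32 groups of 7 or 8 channels and 24 sets of 4 arrays, 2 held a sample far from the rest by Dixon's criterion, which chance gives in about 1 of 20 groups. The TLR4 level of meat-fed dogs at week 0 was 10.17 in Cy5 of meat 9/meat 0 replicate 1, while the other 6 channels of that group lay between 11.001 and 11.44, a gap of 0.655 of the range. That array had the most probes above background. The C5AR1 level of kibble-fed dogs at week 9 was 11.56 in Cy5 of meat 9/kibble 9 replicate 1, while the other 7 lay between 11.86 and 12.10, a gap of 0.571 of the range. Without meat 9/meat 0 replicate 1 or meat 9/kibble 9 replicate 1, each left out in turn, the 4 genes stayed lower on meat over weeks 3, 6 and 9. The cause of these values was not tested.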

How the results depend on the processing

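The lower CYBB over weeks 3, 6 and 9 kept its call in 48 of 48 alternatives (-0.74 to -0.60), and TLR4, CTSS and C5AR1 kept theirs in 47 of 48, leaving out single arrays included. The exception was median centring in place of loess, with -0.34 for TLR4 (adjusted p = 0.0941), -0.31 for CTSS (0.186) and -0.38 for C5AR1 (0.102), so that 1 of the 4 genes passed. Median centring lowered the count over all genes and transcripts from 3870 to 1080. It raised it from 3540 to 5629 for kibble between weeks 0 and 9 (1060 higher and 4569 lower, against 1312 and 2228) and from 583 to 2212 for meat between weeks 3 and 6 (2101 and 111, against 462 and 121). At week 3 it left 7 higher and 120 lower, against 598 and 982, at week 0 0 and 36 against 19 and 62, and at week 9 2 and 8 against 66 and 85. Median centring moved the median of everything tested by less than 0.1 in each comparison. The cause was not tested for this or any change below.

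Other calls changed more often. Median centring left 1 gene called at week 3 (TLR4 -0.76, CTSS -0.64 and C5AR1 -0.89 were lost) and 0 at week 6 (CYBB -0.47). It left 0 for weeks 0 to 9 on kibble (CTSS 0.041) and on meat (CTSS 0.53), and 3 for weeks 3 to 6 on meat (CYBB 0.63 and TLR4 0.75 were gained). With the slide as a fixed term 2 genes were called at week 3 (TLR4 -0.80 and CTSS -0.65 lost), 0 at week 6 (CYBB -0.62) and 0 for weeks 0 to 9 (CTSS 0.45 on kibble, 0.51 on meat). The diet arrays of a week alone gave 0 calls, with -0.98, -0.80, -0.65 and -1.02 for CYBB, TLR4, CTSS and C5AR1 at week 3 and -0.62 for CYBB at week 6. The arrays of the loop alone left 0 for weeks 0 to 9 (CTSS 0.41 on kibble, 0.56 on meat). A dye term for each scan session left 1 gene at week 3 (TLR4 -0.65, CTSS -0.56 and C5AR1 -0.74 lost), 0 for kibble over weeks 0 to 9 (CTSS 0.42) and 0 for meat over weeks 3 to 6 (C5AR1 0.64). Scaling between arrays lost CTSS at week 3 (-0.48) and on meat over weeks 0 to 9 (0.50, 0 called), and the scanner software's processed signals lost CTSS at week 3 (-0.54). CTSS on kibble over weeks 0 to 9 was lost without a filter (0.44) and without the arrays of fewest and most probes above background (0.40), each with 0 called. Array weights added CYBB there (0.39, 2 called) and TLR4 on meat over weeks 3 to 6 (0.59, 2 called).

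Deviations of same-numbered kibble and meat time arrays correlated between -0.78 and 0.2. Whether the shared numbers pair these arrays cannot be told from this, as such arrays also shared a slide and had opposite dye orders. A block for the replicate number gave each number its own offset in the ratio of Cy5 over Cy3. It does not pair dogs or arrays, so it cannot decide that question. With this block all 4 genes stayed lower over weeks 3, 6 and 9 (CYBB -0.70, TLR4 -0.44, CTSS -0.40, C5AR1 -0.48, adjusted p from 0.000106 to 0.0107). That block lost CTSS at week 3 (-0.57) and, with 0 called in each, CTSS on kibble over weeks 0 to 9 (0.42) and C5AR1 on meat over weeks 3 to 6 (0.67).

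Leaving out each array in turn gave the following ranges where a call changed. At week 3 they were -0.75 to -0.60 for TLR4, -0.65 to -0.46 for CTSS and -0.95 to -0.68 for C5AR1, with 1 to 4 genes called. At week 6 CYBB ran from -0.76 to -0.59 (0 or 1 called). At week 0 CYBB ran from -0.79 to -0.29 and CTSS from -0.65 to -0.12 (0 to 2 called), and at week 9 CYBB from -0.64 to -0.42 (0 or 1). Over weeks 0 to 9 CTSS ran from 0.32 to 0.54 on kibble, where CYBB ran from 0.24 to 0.44 (0 to 2 called), and from 0.43 to 0.64 on meat (0 or 1). Over weeks 3 to 6 on meat C5AR1 ran from 0.63 to 0.82 (0 or 1). Without meat 0/kibble 0 replicate 1, 237 genes and transcripts passed in the fed weeks against week 0, none of them among the 4 genes.

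Sign changes touched values that were called under neither setting. With median centring CYBB, TLR4 and C5AR1 on kibble over weeks 0 to 9 turned to -0.063, -0.19 and -0.21, and the fed weeks against week 0 to 0.17 for CYBB, 0.11 for TLR4 and 0.26 for CTSS (without single arrays -0.38 to 0.093, -0.40 to 0.045 and -0.26 to 0.24). The change in the diet difference between weeks 0 and 9 turned for CYBB to -0.0020 with processed signals, -0.077 with scaling, -0.26 with the slide, -0.12 with array weights and -0.072 with the session dye term (without single arrays -0.21 to 0.20). For TLR4 it turned to 0.33 with median centring, 0.053 without a dye term and 0.10 as the mean over both probes (-0.23 to 0.15). For CTSS it turned to -0.018 with scaling and -0.032 with array weights (-0.11 to 0.32), and for C5AR1 to 0.11 with median centring. C5AR1 at week 0 was 0.28 with the slide as a fixed term and from the week's arrays alone (-0.43 to 0.12 without single arrays). With the slide, kibble over weeks 3 to 6 was -0.011 for TLR4 and -0.047 for C5AR1. Without quantile normalisation the C5AR1 step from week 0 to week 3 was 0.030 on kibble, and on meat -0.65 and not called.

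Comparisons over time could not be fitted from their own arrays alone, which hold a single dye order, and comparisons spanning both loops could not be fitted in 1 loop. The planned promoter search was not run. Every probe of the 4 genes stood well above background in all channels.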
